A study of Mus musculus with 12 samples.

Results

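A set of 10 genes of fibroblast growth factor (FGF) signalling was followed in mouse embryonic stem (ES) cells depleted of a TET enzyme: the ligands Fgf4, Fgf5, Fgf8, Fgf15 and Fgf17, the receptors Fgfr1, Fgfr2, Fgfr3 and Fgfr4, and the secreted carrier Fgfbp1. They were chosen by symbol, as the rows of the authors' deposited gene tables whose Ensembl identifiers carry those names. All 10 were found among 36521 rows, 8 of them in a row of their own. The other 2 lie in rows that the authors' counting merged from several genes: Fgfr1 with an unnamed gene and Fgfr2 with Ctbp2, a transcriptional corepressor. Reads of those 2 rows cannot be assigned to the receptor, so counts below are over the other 8 genes.

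V6.5 mouse ES cells made up 3 groups of 4 libraries of poly(A)-selected RNA, prepared with a SOLiD kit, which the labels call biological replicates. Tet1kd cells had been electroporated with pSUPER-puro carrying a short hairpin RNA against Tet1, Tet2kd cells with the same plasmid carrying one against Tet2, and parental V6.5 cells had received neither. The knockdown cells were selected with puromycin on puromycin-resistant, inactivated SNL76/7-4 feeder cells and picked as single clones. The number of clones behind each knockdown's libraries is not stated in the labels, so p-values measure the spread between these libraries. Medium with serum and LIF was used throughout, and there was no control hairpin and no vector-only group, so the vector, the selection and the cloning cannot be told apart from the knockdown. Tet1 and Tet2 oxidize 5-methylcytosine in DNA to 5-hydroxymethylcytosine.

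FGFs are secreted proteins that bind receptor tyrosine kinases together with heparan sulfate chains on the cell surface, and the receptors signal largely through the RAS-ERK kinase cascade. In mouse ES cells, Fgf4 is the main autocrine ligand, and the ERK signal it raises prepares the cells to leave the naive state. Fgf5 marks the primed epiblast, Fgf8 the gastrulating embryo, and FGFBP1 releases FGFs that heparan sulfate holds in the matrix.

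The libraries held an estimated 15.8 to 39.7 M reads in Tet1kd cells, 14.4 to 31.1 M in Tet2kd cells and 14.6 to 31.6 M in parental cells. In every group the deposited mean of each of the 8 ES cell markers examined was at least 2857 normalized counts. By the first of the authors' deposited tests 5 of them rose and 0 fell in Tet1kd cells, beside 15.2% of all genes called higher. In Tet2kd cells 1 rose and 0 fell, beside 3.85% of all genes called higher. By the authors' deposited tables, the targeted gene Tet1 changed by -1.99 (log2, adjusted p = 1.19e-68) in Tet1kd cells and the targeted gene Tet2 by -0.97 (log2, adjusted p = 3.08e-30) in Tet2kd cells. Markers of feeder fibroblasts moved too: 11 of 12 fell in Tet1kd cells, and in Tet2kd cells 3 rose and 2 fell. Beside these counts and those of the other markers below, 30.4% of all genes were called in Tet1kd cells (15.2% higher and 15.3% lower). In Tet2kd cells 7.14% of all genes were called (3.85% higher and 3.29% lower). The summed level of those 12 was 3262 to 3588 normalized counts in Tet1kd libraries, 6756 to 7135 in Tet2kd libraries and 5539 to 5949 in parental libraries, and none was at 0 in any group. The 8 measured primitive endoderm markers summed to 6115 to 6956 in Tet1kd libraries, 3422 to 4007 in Tet2kd libraries and 3507 to 4116 in parental libraries. In Tet1kd cells 2 of them rose, Lama1 (deposited mean 4749, against 2552 in parental cells) and Col4a1 (1491 against 781). The 3 that fell there were Gata6 (34.7 against 121.5), Gata4 (72.6 against 125.7) and Pdgfra (76.8 against 114.1). In Tet2kd cells 3 of the 8 fell and 5 did not pass the test. The 8 trophectoderm markers summed to 3542 to 3819 in Tet1kd libraries, 3154 to 3638 in Tet2kd libraries and 2828 to 3170 in parental libraries. In Tet1kd cells 3 were higher: Tfap2c (deposited mean 2400, against 1332 in parental cells), Eomes (709 against 410) and Ascl2 (54.4 against 35.9). The 3 lower there were Krt18 (299 against 798), Krt8 (145 against 346) and Cdx2 (5.11 against 31.2). The median log2 fold change of the 8 was -1.08, so the sum follows mainly Tfap2c, the most abundant of them. In Tet2kd cells 1 was higher and 1 lower. The part of these cells in the results below was not tested, and fewer cells of a type cannot be told apart from less RNA per cell.

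Promoters of 4 of the 6 genes that changed in Tet1kd cells (not of Fgf8 and Fgf15) are shown because the TET enzymes act on methylated cytosine in CpG pairs. RefSeq windows of 300 bases, from 250 before to 50 after the transcription start (build GRCm38.p6), matched 6 of the 10 genes, and each sequence runs 5′ to 3′ on the gene's strand with its CpG pairs in capitals. They lie at chr7:144861136-144861435 (+) for Fgf4, chr5:98253934-98254233 (+) for Fgf5, chr5:33721474-33721773 (+) for the first of 2 Fgfr3 starts, and chr5:43981750-43982049 (-) for Fgfbp1.
Fgf4: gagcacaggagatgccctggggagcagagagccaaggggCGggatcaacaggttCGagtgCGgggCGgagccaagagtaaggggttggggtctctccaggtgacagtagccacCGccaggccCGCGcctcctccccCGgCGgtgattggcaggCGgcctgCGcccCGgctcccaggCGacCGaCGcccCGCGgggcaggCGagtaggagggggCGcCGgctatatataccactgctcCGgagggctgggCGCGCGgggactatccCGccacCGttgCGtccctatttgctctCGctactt
Fgf5: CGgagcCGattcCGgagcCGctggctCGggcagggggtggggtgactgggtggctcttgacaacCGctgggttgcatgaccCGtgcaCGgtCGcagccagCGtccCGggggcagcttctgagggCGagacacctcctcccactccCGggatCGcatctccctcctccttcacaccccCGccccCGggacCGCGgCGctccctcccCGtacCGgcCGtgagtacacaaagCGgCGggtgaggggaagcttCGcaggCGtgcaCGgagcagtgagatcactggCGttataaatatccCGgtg
Fgfr3: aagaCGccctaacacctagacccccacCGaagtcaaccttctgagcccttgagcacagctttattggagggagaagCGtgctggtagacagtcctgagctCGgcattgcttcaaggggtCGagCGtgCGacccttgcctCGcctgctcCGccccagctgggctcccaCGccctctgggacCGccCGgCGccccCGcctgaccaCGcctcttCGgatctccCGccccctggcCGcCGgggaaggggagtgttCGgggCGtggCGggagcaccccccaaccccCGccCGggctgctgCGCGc
Fgfbp1: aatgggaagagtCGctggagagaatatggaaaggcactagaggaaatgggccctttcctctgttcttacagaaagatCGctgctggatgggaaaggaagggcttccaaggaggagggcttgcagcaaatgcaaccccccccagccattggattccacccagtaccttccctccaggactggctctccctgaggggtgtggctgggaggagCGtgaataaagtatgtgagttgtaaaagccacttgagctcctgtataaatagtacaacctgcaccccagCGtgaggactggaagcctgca
Fgf4, Fgf5 and Fgfr3 carry 28, 29 and 26 CpG pairs in these windows, against a median of 7 over 32817 RefSeq promoters. The second Fgfr3 start has 30. The Fgfbp1 window holds 4, and 38.1% of all promoters hold as few. Fgfr4, which passed no test, has 20, and Fgfr2 has 4. The motif TATAAA, searched on both strands, was found once each in the Fgf5 and Fgfbp1 windows and in 13.6% of all promoters. No DNA methylation values were analysed here.

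In Tet1kd cells the FGF genes moved in both directions: Fgf4 and Fgf15 rose, Fgf5, Fgf8, Fgfr3 and Fgfbp1 fell, and Fgf17 and Fgfr4 did not pass the test. By the first of the authors' deposited tests, 2 of the 8 genes were thus higher and 4 lower at an adjusted p under 0.05, where 30.4% of 23120 genes were called (15.2% higher and 15.3% lower). Their median log2 fold change was -0.64, against -0.03 over all genes tested. In Tet2kd cells Fgf5 rose and Fgfr3 fell, and 6 genes did not pass. There 7.14% of 22949 genes were called (3.85% higher and 3.29% lower), and the median of the 8 genes was 0.17, against -0.01 over all. The second of the authors' tests called 2 of the 8 higher and 4 lower in Tet1kd cells (background 39.2%, with 19% higher and 20.2% lower) and 3 higher and 1 lower in Tet2kd cells (background 18.2%, with 8.78% higher and 9.4% lower). With limma on reads recovered for each library the counts were 2 and 4 in Tet1kd cells (background 54.5%, with 26.8% higher and 27.7% lower) and 1 and 1 in Tet2kd cells (background 19.6%, with 9.87% higher and 9.71% lower). The gene that limma called higher in Tet2kd cells was Fgf4 (limma adjusted p = 0.0366), a call that rests on the choice of reads, and not Fgf5 (limma adjusted p = 0.0688). Both comparisons use the same parental libraries. The values by library below are normalized read counts recovered from the deposited means and placed on the scale of the Tet1kd table. Libraries are lettered by depth (a and b deeper, c and d shallower), with no link to the labels' replicate numbers. The share of all genes whose groups of libraries do not overlap was not counted.

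**Figure D1:**
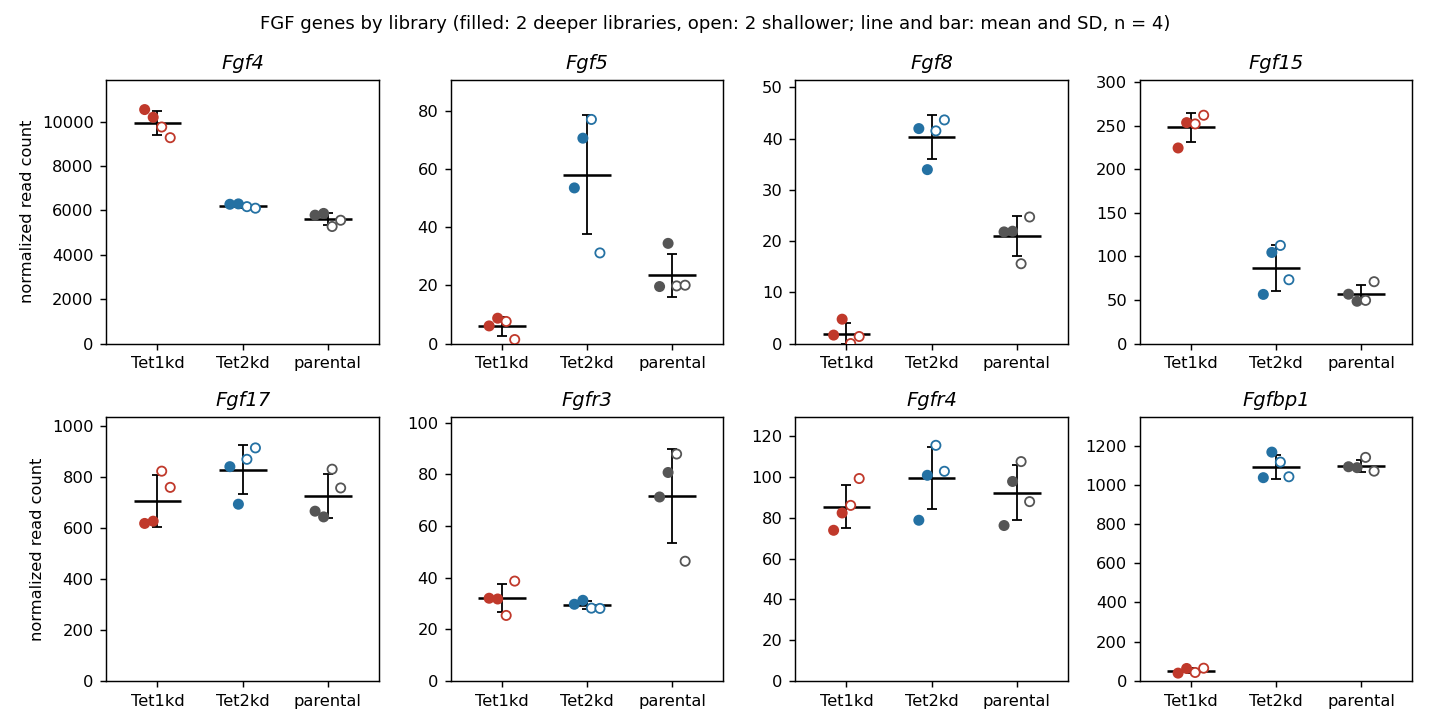
Normalized read count (vertical axes, from 0) of the 8 FGF genes with rows of their own, in Tet1kd, Tet2kd and parental libraries from left to right; each point is a library, lines and bars the mean and SD of 4. Tet1kd libraries sit above all parental ones for Fgf4 and Fgf15 and below them for Fgf5, Fgf8, Fgfr3 and Fgfbp1. Fgf4 in Tet1kd cells shows 1 of 3 sets of reads that match the deposited mean with every library within 20% of it. That limit alone keeps these libraries above the parental ones. Fgf4 in Tet2kd cells shows the only matching set within the same limit.

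Fgf4 (ENSMUSG00000050917, chromosome 7), which ES cells secrete and respond to, was the most abundant of the 8 in every group and rose in Tet1kd cells. Its deposited mean was 9949.8 normalized counts in Tet1kd cells and 5624 in parental cells, 1.77-fold (log2 fold change 0.82, adjusted p = 9.63e-22; the authors' deposited table). Searched with every library within 20% of the group mean, the Tet1kd mean is matched by 3 sets of whole reads. The set nearest the mean has 10550.1, 10203, 9764 and 9282 counts in Tet1kd libraries a to d, against 5789, 5868, 5278 and 5559.8 in parental libraries. The lowest Tet1kd library is 8806 or 8393 in the other 2 sets. The 20% limit shuts out a Tet1kd library as low as the parental ones, so these sets cannot test whether the groups overlap. Tet2kd libraries had 6279.7, 6297, 6173 and 6103 normalized counts of Fgf4 (mean 6213 ± 91.5, SD, n = 4), each above every parental library (5624 ± 265, SD, n = 4). Several sets of reads matched the Tet2kd mean within 60% of it, and this is the only one within 20%. The small SD and the lack of overlap with parental libraries rest on that choice. The difference between the deposited Tet2kd and parental means, 0.14 on the log2 scale, missed the threshold in the first of the authors' deposited tests (adjusted p = 0.410) and passed their second (adjusted p = 0.000263). In the direct comparison of the knockdowns Fgf4 had a difference of 0.68 (log2, SE 0.0457, limma adjusted p = 9.34e-09) with the set nearest the mean. With the other 2 sets of Tet1kd reads it was 0.67 in each (SE 0.0649 and 0.0750, limma adjusted p = 5.08e-07 and 2.49e-06). Both knockdowns were recovered with the 20% limit, so these SEs and p-values lean towards small values.

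Fgf15 (ENSMUSG00000031073, chromosome 7), the mouse counterpart of human FGF19 and best known as an endocrine signal from the gut to the liver, rose most of all the ligands in Tet1kd cells. Tet1kd libraries a to d had 225, 254, 252 and 262 normalized counts, Tet2kd libraries 56.4, 105, 113 and 73.3, and parental libraries 56.7, 48.6, 49.6 and 71.0. The Tet1kd libraries stood clear of all the others, whereas Tet2kd and parental libraries overlapped. The means were 248 ± 16.3 in Tet1kd cells, 86.7 ± 26.4 in Tet2kd cells and 56.5 ± 10.4 in parental cells (SD, n = 4 each). By the authors' deposited tables Fgf15 was 4.40-fold in Tet1kd cells (log2 fold change 2.14, adjusted p = 1.44e-31) and 1.54-fold in Tet2kd cells (0.62, adjusted p = 0.284). The Tet2kd value passed with limma when the 2 depths were a term (0.58, adjusted p = 0.0146). The knockdowns differed by 1.56 on the log2 scale in the direct test (SE 0.197, limma adjusted p = 8.46e-06).

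Fgf5 (ENSMUSG00000029337, chromosome 5) and Fgf8 (ENSMUSG00000025219, chromosome 19), ligands of the primed epiblast and of gastrulation, fell in Tet1kd cells and had higher means in Tet2kd cells than in parental cells. Fgf5 had 6.07, 8.72, 7.60 and 1.38 normalized counts in Tet1kd libraries, 53.5, 70.6, 77.1 and 31.2 in Tet2kd libraries, and 19.6, 34.5, 19.8 and 20.1 in parental libraries. All Tet1kd libraries lay below all parental ones, and 1 Tet2kd library lay below the highest parental library. These are low counts: 29 reads over the 4 Tet1kd libraries, 223 over the Tet2kd libraries and 98 over the parental libraries. The mean was 5.94 ± 3.23 in Tet1kd cells, 58.1 ± 20.5 in Tet2kd cells and 23.5 ± 7.31 in parental cells (SD, n = 4 each). By the authors' deposited tables Fgf5 fell in Tet1kd cells to 25.3% of its parental mean (log2 fold change -1.98, adjusted p = 0.000574) and rose 2.47-fold in Tet2kd cells (1.31, adjusted p = 0.0328). The rise in Tet2kd cells lost its call with limma on the recovered libraries (log2 fold change 1.25, adjusted p = 0.0688).

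Fgf8 had 1.66, 4.76, 0 and 1.38 normalized counts in Tet1kd libraries, 42.0, 33.9, 41.5 and 43.6 in Tet2kd libraries, and 21.8, 21.9, 15.6 and 24.7 in parental libraries. The 3 groups did not overlap. Reads over the 4 libraries numbered 10 in Tet1kd cells, 151 in Tet2kd cells and 85 in parental cells, and the means were 1.95 ± 2.01 normalized counts in Tet1kd cells, 40.3 ± 4.31 in Tet2kd cells and 21.0 ± 3.85 in parental cells (SD, n = 4 each). Tet1kd cells had 9.27% of the parental mean (log2 fold change -3.43, adjusted p = 2.31e-06; the authors' deposited table). With limma the value was -3.55, and with a library left out it ran from -4.07 (without Tet1kd library b) to -2.94 (without Tet1kd library c). In Tet2kd cells the value was 0.94, which missed the threshold in the first test (adjusted p = 0.0921) and passed the second (adjusted p = 0.0425). Between the knockdowns, Tet1kd minus Tet2kd was -3.33 for Fgf5 (log2, SE 0.46, limma adjusted p = 2.16e-05) and -4.49 for Fgf8 (SE 0.542, limma adjusted p = 5.39e-06; -3.87 without Tet1kd library c).

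Fgf17 (ENSMUSG00000022101, chromosome 14), a ligand of the Fgf8 subfamily, was far more abundant than Fgf8 and passed neither of the authors' tests in either knockdown. Tet1kd libraries had 617, 626, 822 and 759 normalized counts, Tet2kd libraries 839.9, 693, 869 and 914, and parental libraries 665, 643, 830.1 and 757. The groups overlapped, and in all of them the 2 shallower libraries averaged more than the 2 deeper ones. By the authors' deposited tables the log2 fold change of Fgf17 was -0.04 in Tet1kd (adjusted p = 0.955) and 0.20 in Tet2kd (adjusted p = 0.395). The Tet2kd value passed with limma when the 2 depths were a term (adjusted p = 0.0186). Tet1kd minus Tet2kd was -0.23 on the log2 scale (SE 0.113, 95% interval -0.47 to 0.01, limma adjusted p = 0.0966). With the 2 depths as a term in the fit it passed the threshold (adjusted p = 0.0026), and within the deeper and the shallower libraries it was -0.29 and -0.17.

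Among the receptors, Fgfr3 was lower in both knockdowns. Fgfr3 (ENSMUSG00000054252, chromosome 5), a tyrosine kinase receptor known above all for restraining bone growth, had 32.0, 31.7, 25.3 and 38.6 normalized counts in Tet1kd libraries, 29.7, 31.2, 28.2 and 28.1 in Tet2kd libraries, and 71.2, 80.7, 87.8 and 46.3 in parental libraries. Every knockdown library was below the lowest parental library. The mean was 31.9 ± 5.43 in Tet1kd cells, 29.3 ± 1.48 in Tet2kd cells and 71.5 ± 18.1 in parental cells (SD, n = 4 each). Tet1kd cells had 44.6% of the parental mean (log2 fold change -1.16, adjusted p = 0.000114) and Tet2kd cells 40.9% (-1.29, adjusted p = 0.00014) by the authors' deposited tables. The 2 knockdowns did not differ past the threshold: the difference was 0.11 on the log2 scale, with a 95% interval from -0.36 to 0.58 (limma adjusted p = 0.704).

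Fgfr4 (ENSMUSG00000005320, chromosome 13), the receptor through which Fgf15 acts on the liver, had 73.9, 82.4, 86.2 and 99.3 normalized counts in Tet1kd libraries, 78.9, 101, 116 and 103 in Tet2kd libraries, and 76.3, 97.9, 108 and 88.0 in parental libraries. All 3 groups overlapped. By the authors' deposited tables Fgfr4 had 92.4% of the parental mean in Tet1kd (log2 fold change -0.11, adjusted p = 0.787) and 108% in Tet2kd (0.11, adjusted p = 1), and between the knockdowns it was -0.21 (95% interval -0.55 to 0.12, limma adjusted p = 0.275). The row that holds Fgfr1, the main FGF receptor of ES cells, had 2884, 3144, 3429 and 3714 normalized counts in Tet1kd libraries, 2532, 2334, 2799 and 3079 in Tet2kd libraries, and 2781, 2787, 3154 and 3265 in parental libraries. Neither knockdown passed the first of the authors' deposited tests in this row (log2 fold change 0.14, adjusted p = 0.452 in Tet1kd cells, and -0.16, adjusted p = 0.50 in Tet2kd cells), and both passed the second (adjusted p = 0.012 in Tet1kd cells and 0.00372 in Tet2kd cells). The direct test gave a difference of 0.30 between the knockdowns (SE 0.0907, limma adjusted p = 0.013). The row of Fgfr2 and Ctbp2 had log2 fold changes of -0.14 (adjusted p = 0.243) in Tet1kd cells and -0.13 (adjusted p = 0.474) in Tet2kd cells by the first of the authors' deposited tests. By the second both passed (adjusted p = 0.000264 in Tet1kd cells and 0.000219 in Tet2kd cells).

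Fgfbp1 (ENSMUSG00000048373, chromosome 5), the secreted carrier, had the largest change of the 8 genes in Tet1kd cells and almost none in Tet2kd cells. Tet1kd libraries had 39.7, 63.4, 43.1 and 64.8 normalized counts, Tet2kd libraries 1037, 1167, 1116 and 1041, and parental libraries 1092, 1088, 1140.3 and 1070.0. The highest Tet1kd library, at 64.8, was far below the lowest of the others, at 1037, while Tet2kd and parental libraries overlapped. The mean was 52.8 ± 13.2 in Tet1kd cells, 1090.4 ± 62.8 in Tet2kd cells and 1098 ± 30.0 in parental cells (SD, n = 4 each). The Tet1kd mean was 4.81% of the parental one (log2 fold change -4.38, adjusted p = 4.38e-227) and the Tet2kd mean 99.3% (-0.01, adjusted p = 1) by the authors' deposited tables. With limma the Tet2kd change had a 95% interval from -0.30 to 0.27. The knockdowns differed by -4.39 on the log2 scale (SE 0.134, limma adjusted p = 2.57e-12).

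**Figure D2:**
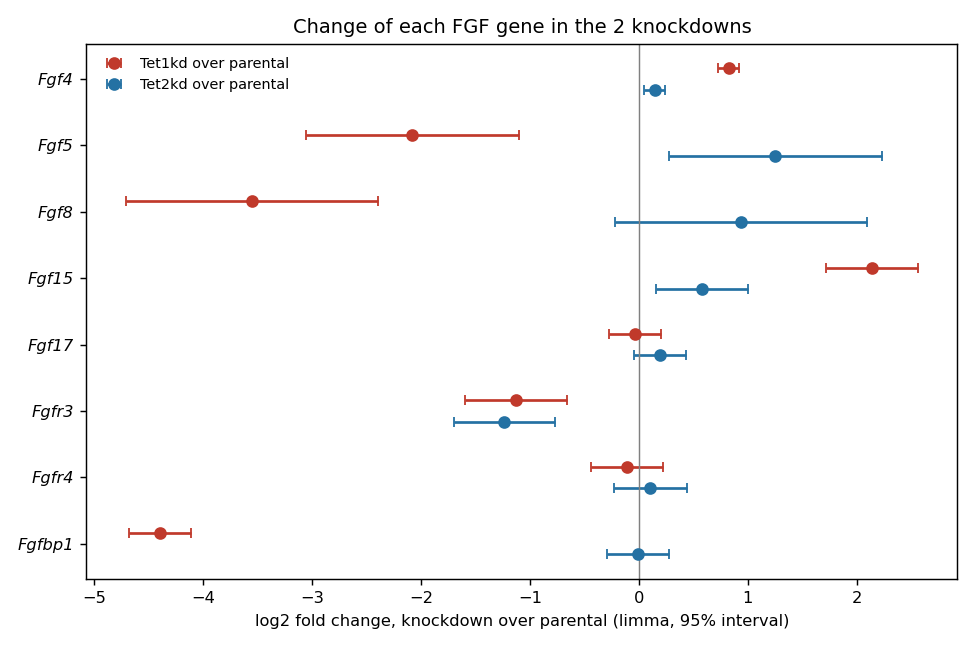
Log2 fold change (horizontal axis) of each of the 8 FGF genes in Tet1kd and in Tet2kd over parental cells, from limma on the recovered libraries; bars are 95% intervals and the line at 0 marks no change. Fgfr3 lies below 0 in both knockdowns, at -1.13 in Tet1kd and -1.24 in Tet2kd, while Fgf5 lies at -2.08 in Tet1kd and 1.25 in Tet2kd.

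In the direct comparison of the knockdowns 5 of the 8 genes differed, Fgf4 and Fgf15 higher and Fgf5, Fgf8 and Fgfbp1 lower in Tet1kd cells, against 51% of 14617 genes called in that test (25.6% higher and 25.4% lower). The Tet1kd and Tet2kd libraries do not overlap in any of these 5, which that test picked. Any split of the libraries therefore keeps the direction and is no further support. The share of all genes whose Tet1kd and Tet2kd libraries do not overlap was not counted. For Fgf4 both groups were recovered with every library within 20% of its group mean, which alone keeps them apart. The size of the difference could vary between the deeper and the shallower libraries. Fgfbp1 differed by -4.44 within the deeper and by -4.34 within the shallower libraries, and Fgf8 by -3.51 and -5.47.

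Divided by the length of the longest coding transcript, the levels of the 8 genes could be set in order; the longest of these transcripts need not be the one the cells use. Fgf4 had 3284 ± 181 normalized reads per kb in Tet1kd cells, 2051 ± 30.2 in Tet2kd cells and 1856 ± 87.5 in parental cells (SD, n = 4 each). The Tet1kd SD rests on the set of reads nearest the mean, which has an SD of 549 normalized counts, against 1154 and 1411 in the other 2 sets. The Tet2kd SD rests on the only matching set with every library within 20% of the mean. In parental cells Fgfbp1 (501 ± 13.7 per kb) and Fgf17 (429 ± 51.1) came next and overlapped in range. Fgf15 (31.2 ± 5.72) and Fgfr4 (27.8 ± 4.04) also overlapped, as did Fgf8 (17.98 ± 3.30) with Fgfr3 (16.8 ± 4.27) and Fgfr3 with Fgf5 (9.39 ± 2.92). In Tet1kd cells the order became Fgf4, Fgf17 (418 ± 59.7), Fgf15 (137 ± 9.01), Fgfr4 (25.7 ± 3.18), Fgfbp1 (24.1 ± 6.03), Fgfr3 (7.52 ± 1.28), Fgf5 (2.38 ± 1.29) and Fgf8 (1.67 ± 1.72). There the ranges of Fgfr4 and Fgfbp1 overlapped, as did those of Fgf5 and Fgf8. In Tet2kd cells Fgf4 was followed by Fgfbp1 (498 ± 28.7) and Fgf17 (491 ± 56.6), whose ranges overlapped, then by Fgf15 (47.9 ± 14.6), Fgf8 (34.5 ± 3.69), Fgfr4 (30.0 ± 4.60) and Fgf5 (23.2 ± 8.21), each overlapping the next, and Fgfr3 (6.90 ± 0.348) stood apart as the lowest.

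**Figure D3:**
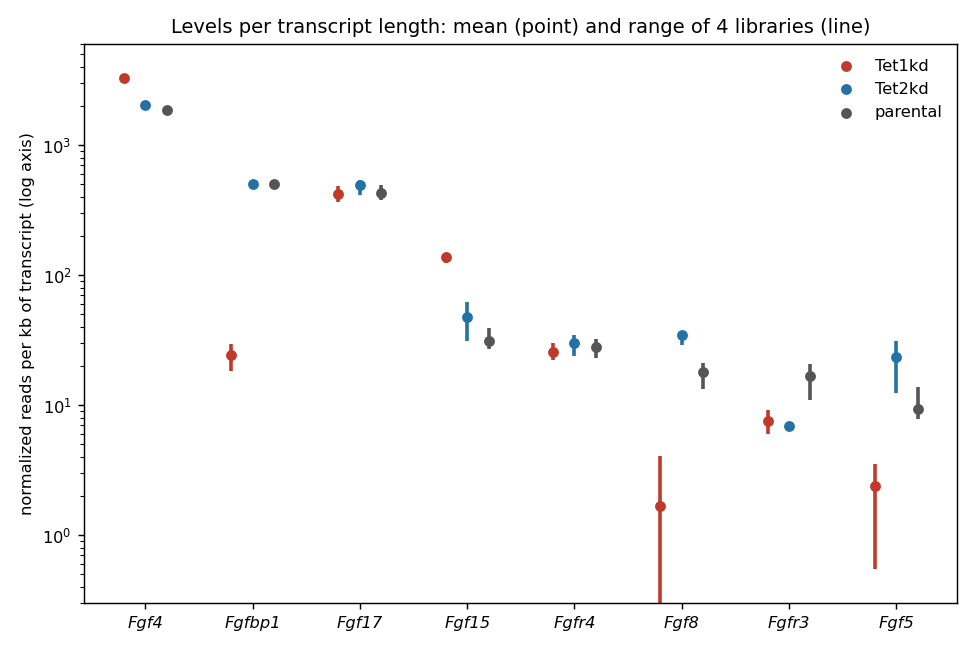
Normalized reads per kb of transcript (vertical log axis) of the 8 FGF genes, ordered by their parental mean, with Tet1kd, Tet2kd and parental cells from left to right for each gene; points are means and lines the range of 4 libraries. Fgf8 in Tet1kd cells reaches 0 in 1 library, so its line is drawn to the bottom of the axis. Fgfbp1 sits beside Fgfr4 in Tet1kd cells, at 24.1, and beside Fgf17 in Tet2kd and parental cells, at 498 and 501.

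Exon use within the genes was compared with the authors' deposited DEXSeq tables, which divide each gene into bins. The 8 genes have 97 bins. In Tet1kd cells 51 were tested and 0 were called by DEXSeq (2 at an unadjusted p under 0.05, both in Fgfr3), against 2.56% of 195843 bins in all, or 14% at an unadjusted p under 0.05. In Tet2kd cells 50 were tested and 0 were called by DEXSeq (0 at an unadjusted p under 0.05), against 2.45% of 193091 bins, or 13.6% unadjusted. The merged Fgfr1 row had 1 of 51 tested bins called in each knockdown (adjusted p = 0.00697 in Tet1kd cells and 0.0219 in Tet2kd cells, in the authors' deposited tables). The row of Fgfr2 and Ctbp2 had 1 of 70 tested bins called in Tet2kd cells (adjusted p = 0.00701 in the authors' deposited table).

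Fgf4 and Fgf15 are neighbours on chromosome 7, beside Fgf3, another FGF ligand and a developmental signal of the inner ear and tail bud. These 3 genes rose in Tet1kd cells, as did Ano1, a chloride channel gene on the far side of Fgf3. Fgf3 had a deposited mean of 41.6 normalized counts in Tet1kd cells and 20.3 in parental cells (log2 fold change 1.03, adjusted p = 0.0171 in the authors' deposited table), and Ano1 41.1 in Tet1kd cells and 20.05 in parental cells (1.04, adjusted p = 0.0215). Outside that run, the measured gene next to Ano1 was Fadd, an adaptor of death receptors, which fell by 0.77 on the log2 scale (adjusted p = 5.01e-05). The one next to Fgf15 was LTO1, with a log2 fold change of -0.26 (adjusted p = 0.537), and then Ccnd1, the gene of cyclin D1, which fell by 0.40 (adjusted p = 9.3e-06). Of the 10 nearest measured genes around Fgf4, 3 rose and 2 fell in Tet1kd cells (median -0.09), beside 15.2% of all genes called higher and 15.3% lower. In Tet2kd cells the log2 fold changes of the same 10 genes ran from -0.51 to 0.62. Around Fgfbp1 on chromosome 5 the 10 nearest measured genes ran from -1.26 to 0.91 in Tet1kd cells, with a median of 0.13. Of these, 4 rose and 3 fell, beside 15.2% of all genes called higher and 15.3% lower. Its direct neighbours Cd38, an enzyme that consumes NAD, and Prom1, a membrane glycoprotein, rose by 0.73 (adjusted p = 3e-09) and 0.91 (adjusted p = 3.01e-10) in the authors' deposited table. The genes around Fgf4 and Fgfbp1 were named by position, outside the list of pathway genes.

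**Figure D4:**
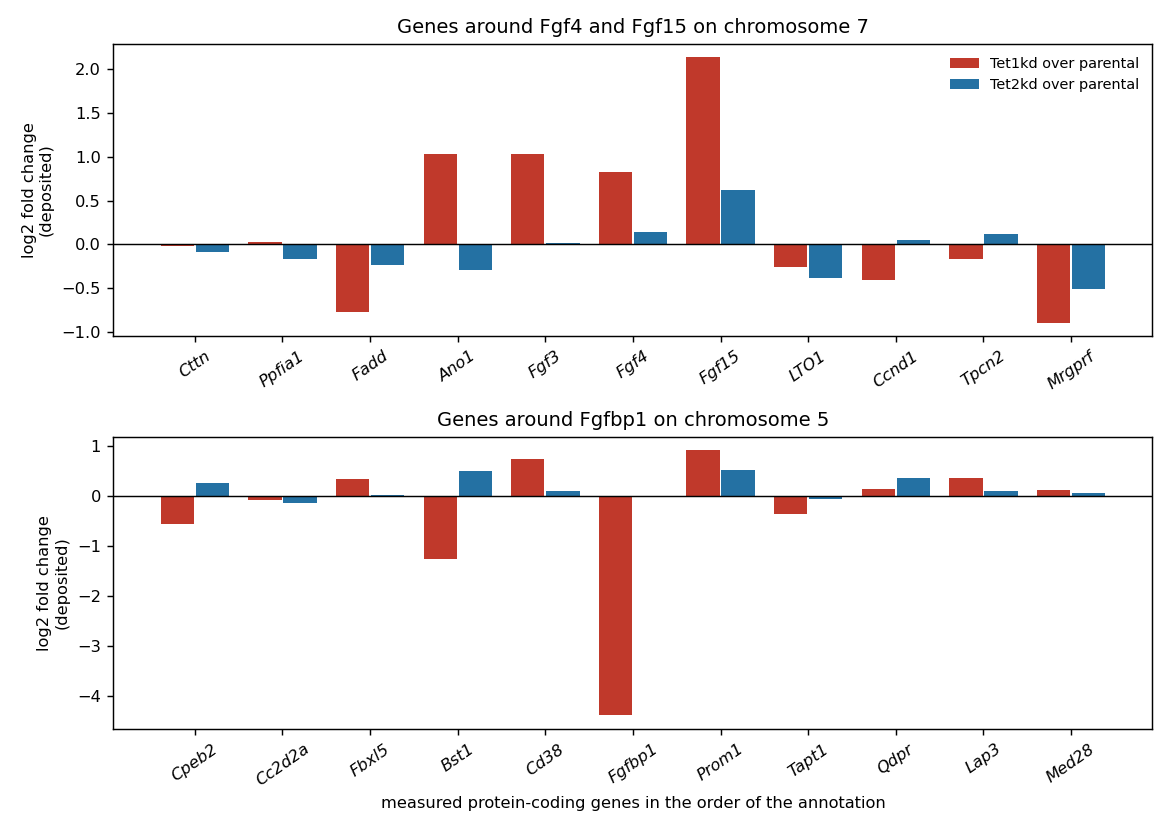
Deposited log2 fold change (vertical axis) in Tet1kd and Tet2kd over parental cells of the 10 nearest measured genes around Fgf4 (upper panel) and around Fgfbp1 (lower panel), in annotation order. Ano1, Fgf3, Fgf4 and Fgf15 form a run of rises in Tet1kd cells, of 1.04, 1.03, 0.82 and 2.14, and Fgfbp1, at -4.38, has no neighbour below -1.26.

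The genes whose pattern over the 12 libraries was most like that of Fgfbp1, among 10968 genes with a mean of at least 100 in a group, were Pax6, T, Gbp2, Nod1 and Dmgdh. The root mean square difference of their centred log2 levels from those of Fgfbp1 was 0.384 for Pax6, which directs eye and brain development, 0.411 for T (Brachyury), the mesoderm transcription factor, 0.434 for Gbp2, an interferon-induced GTPase, 0.442 for Nod1, a sensor of bacterial cell wall, and 0.487 for Dmgdh, a mitochondrial enzyme. For Fgf5, which had the largest change in Tet2kd cells, genes among the nearest of 10969 were Hoxb9 (0.633) and Hoxc13 (0.666), homeobox transcription factors, Ccn4 (0.689), a matrix protein, and Rnd1 (0.690), a GTPase. Likeness here follows mainly the group means and is a description of these libraries. By the first of the authors' deposited tests the genes named for Fgfbp1 fell in Tet1kd cells, from -4.09 (Pax6) to -3.47 (Nod1) on the log2 scale. In Tet2kd cells, where Fgfbp1 was at -0.01, T, Gbp2 and Nod1 rose by 0.87, 0.70 and 0.31, and Pax6 and Dmgdh did not pass. Those named for Fgf5 fell in Tet1kd cells, from -2.36 (Hoxc13) to -1.86 (Hoxb9), and did not pass in Tet2kd cells.

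Of the other FGF ligands, 4 of 15 tested rose in Tet1kd cells and 11 did not pass the test, with a median log2 fold change of 0.43, beside 15.2% of all genes called higher. Fgf1, a ligand that binds all FGF receptors, had a deposited mean of 213 normalized counts in Tet1kd cells and 54.8 in parental cells (log2 fold change 1.95, adjusted p = 1.39e-25 in the authors' deposited table). Fgf13, an intracellular FGF-like protein that binds sodium channels, rose by 1.05 (adjusted p = 6.14e-10), and Fgf3 is given above. In Tet2kd cells 1 of 13 rose, the mesenchymal ligand Fgf10, by 0.92 (adjusted p = 1.12e-06), and 12 did not pass, beside 3.85% of all genes called higher. Of the feeder markers 3 rose in Tet2kd cells (Acta2, Col1a1 and Col1a2, by 0.64, 0.49 and 0.39) and 2 fell (Col3a1 and Twist1, by 0.56 and 0.71), with a median over the 12 of -0.07, and their part in the rise of Fgf10 was not tested. Fgf2 lies in a merged row and has no value.

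Heparan sulfate proteoglycans and other FGF-binding membrane proteins rose in part: 7 of 15 were higher in Tet1kd cells and 8 did not pass the test (median 0.23), beside 15.2% of all genes called higher. The syndecans Sdc2 and Sdc3 rose by 0.79 (adjusted p = 2.04e-11) and 0.57 (adjusted p = 5.9e-05), and the glypican Gpc6 by 0.98 (adjusted p = 1.17e-08), in the authors' deposited table. In Tet2kd cells 1 of 15 rose, the glypican Gpc3, by 0.56 (adjusted p = 3.82e-09), and 14 did not pass (median 0.16), beside 3.85% of all genes. Flrt3 and Gpc2 lie in merged rows and are not counted. By the first of the authors' deposited tests these rows fell in Tet1kd cells (log2 fold change -1.47, adjusted p = 4.12e-15, and -0.36, adjusted p = 0.0207). The Gpc2 row rose in Tet2kd cells (0.40, adjusted p = 0.0298). Of the enzymes that build and trim heparan sulfate, 8 of 24 rose and 5 fell in Tet1kd cells (median 0.00), and 5 rose and 2 fell in Tet2kd cells (median -0.12). All genes were called at 30.4% in Tet1kd cells and 7.14% in Tet2kd cells. The sulfotransferases Ndst1 and Ndst2 and the glycosyltransferase Extl1 rose in Tet1kd cells by 0.76 (adjusted p = 1.4e-14), 0.66 (adjusted p = 3.94e-06) and 0.93 (adjusted p = 8.43e-06). Sulf1, an extracellular sulfatase, fell by 1.43 in Tet1kd cells (adjusted p = 8.75e-39) and rose by 0.44 in Tet2kd cells (adjusted p = 0.000147). Of the 12 feeder markers 11 fell in Tet1kd cells, and in Tet2kd cells 3 rose, 2 fell and 7 did not pass; their part was not tested. Ext1, which elongates the chain, fell by 0.69 in Tet1kd cells (adjusted p = 1.94e-12) and by 0.62 in Tet2kd cells (adjusted p = 8.6e-10), and Hs3st3b1, a sulfotransferase, by 0.78 in Tet1kd cells (adjusted p = 1.3e-08). In Tet2kd cells B4galt7, which builds the linker, and the sulfotransferase Hs6st1 rose by 0.42 (adjusted p = 0.0139) and 0.26 (adjusted p = 0.0166), while the sulfotransferase Hs2st1 fell by 0.28 (adjusted p = 0.0368).

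Of the adaptors and kinases that carry the receptor signal, 6 of 21 rose and 6 fell in Tet1kd cells (median -0.07), beside 15.2% of all genes called higher and 15.3% lower. Sos2, an exchange factor for RAS, rose by 1.24 (adjusted p = 2.11e-26), and the kinases Braf and Map2k1 by 0.66 (adjusted p = 8.07e-08) and 0.40 (adjusted p = 1.71e-05), in the authors' deposited table. The adaptors Crkl, Shc1 and Gab1 fell by 0.61 (adjusted p = 1.59e-11), 0.62 (adjusted p = 2.2e-10) and 0.54 (adjusted p = 7.1e-07). Frs3 lies in a merged row and is not counted. By the first of the authors' deposited tests that row rose by 1.18 in Tet1kd cells (adjusted p = 6.17e-11). In Tet2kd cells 1 of 21 rose and 1 fell (median -0.01), beside 7.14% of all genes called: Sos1, the relative of Sos2, by 0.25 (adjusted p = 0.0466), and Gab1, which fell by 0.55 (adjusted p = 4.17e-09).

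The feedback inhibitors and ETS transcription factors that FGF-ERK signalling induces were mostly lower in Tet1kd cells: 11 of 13 fell and 1 rose, with a median log2 fold change of -0.52, beside the 30.4% of all genes called. Spry4, a Sprouty inhibitor of the pathway, had a deposited mean of 4590 normalized counts in Tet1kd cells and 9642 in parental cells (log2 fold change -1.07, adjusted p = 5.47e-35 in the authors' deposited table). The ERK phosphatases Dusp5 and Dusp6 fell by 1.12 (adjusted p = 2.69e-30) and 0.96 (adjusted p = 1.23e-26). Spry1, another Sprouty, rose by 0.78 (adjusted p = 5.01e-11). In Tet2kd cells 2 of 13 rose and 3 fell (median -0.03), beside 7.14% of all genes called. Dusp5, Spry4 and the ETS factor Etv4 fell by 0.69 (adjusted p = 2.31e-12), 0.52 (adjusted p = 2.49e-08) and 0.42 (adjusted p = 0.0349), and Spry1 and Dusp6 rose by 0.38 (adjusted p = 0.0154) and 0.28 (adjusted p = 0.0255). Dusp6 thus fell in Tet1kd cells and rose in Tet2kd cells.

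**Figure D5:**
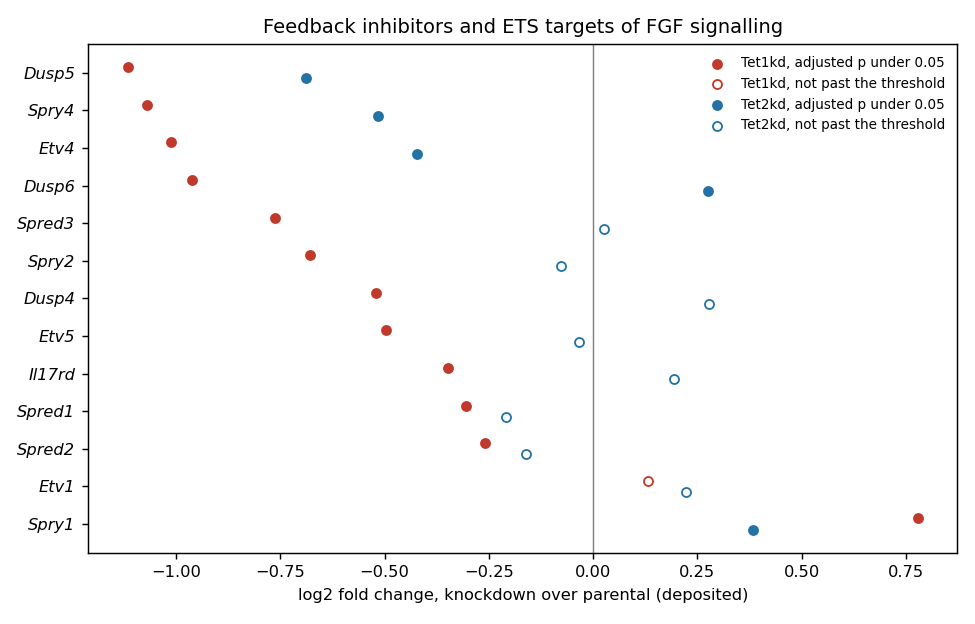
Deposited log2 fold change (horizontal axis) in Tet1kd and Tet2kd over parental cells of 13 feedback inhibitors and ETS targets, ordered by the Tet1kd value; filled points passed the first of the authors' tests at an adjusted p of 0.05. In Tet1kd cells 11 lie below 0 and are filled, and in Tet2kd cells 3 do.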

How the data were processed

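Per the submitters' processing notes, the authors used TopHat2 (version 2.0.0), SAMtools (version 0.1.18) and DESeq with builds mm9 and NCBIM37. Per the file headers, the authors deposited for each knockdown a mean signal per gene and group (normalized count), the ratio of the means (fold over parental), the log2 of that ratio, and p-values with adjusted p-values of 2 tests. Their exon tables hold, per the file headers, a mean signal, a log2 ratio (printed here with its sign turned to knockdown over parental), a p-value and a dispersion score per bin.

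No counts per library were in these tables. Whole reads per library were recovered from the deposited means, by searching for the 4 whole numbers whose scaled mean equals the deposited digits. Each library had to lie within 60% of the group mean (for low counts, within 8 square roots of the expected reads plus 8 reads), or within 20% where several sets matched, which leans towards small SDs. This gave 21216 of 21658 genes with reads in Tet1kd, 21067 of 21368 in Tet2kd and 21992 of 22004 in parental libraries. On simulated data 3, 2 and 0 of 1500 genes in each of these groups came out wrong, and 40, 21 and 0 were not answered. Tet2kd values by library were multiplied by 1.089 to reach the scale of the Tet1kd table. The split into 2 deeper and 2 shallower libraries comes from the size factors.

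Counts of changed genes use the first deposited adjusted p at 0.05. Differences between knockdowns were tested on log2 normalized counts in limma 3.58.1 under R 4.3.3, with a pseudocount of 0.5, genes with a mean of at least 10, all 12 libraries and Benjamini-Hochberg adjustment over 14617 genes; SEs and intervals come from that fit. The fit was tried on counts drawn around the measured gene means. They had the same dispersion for every gene and far fewer changed genes than limma called in Tet1kd cells. For Tet1kd against parental it called 93 of 100 genes changed 2-fold, 72 of 100 changed 1.5-fold and 14 unchanged genes. In Tet2kd against parental it called 95 and 69 of 100, and 14 unchanged genes.

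All 10 FGF genes are named. Of each other pathway list, up to 3 genes that rose and 3 that fell with the smallest adjusted p are named, and for the FGF gene with the largest change in each comparison the 5 genes most like it over the 12 libraries. Of these genes 1 is not reported here. Gene names came from the Ensembl identifiers, and neighbours and transcript lengths from GENCODE M21 (GRCm38), not the authors' annotation. Members and lists were chosen with earlier results of these data known. Alternatives were the second deposited test, a pseudocount of 1, no minimum mean, TMM scaling, the 2 depths as a term, and each library left out. Planned tests on deposited counts per library were not run.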

Additional observations from a re-analysis of the deposited data

Results flagged for a closer look

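The direct test of the difference between the knockdowns (limma, Benjamini-Hochberg adjustment) singled out 6 rows. On the log2 scale, Tet1kd minus Tet2kd was 0.68 for Fgf4, -3.33 for Fgf5, -4.49 for Fgf8, 1.56 for Fgf15, -4.39 for Fgfbp1 and 0.30 for the merged row that holds Fgfr1. Fgf5 and Fgf8 had all Tet1kd libraries below, and all but 1 Tet2kd library of Fgf5 above, every parental library.

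One library stood apart within its group: parental library b had 34.5 normalized counts of Fgf5, where the other parental libraries had 19.6, 19.8 and 20.1. The rule was applied to 30 groups of 4 libraries, and chance marks about 1 in 20.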

How the results depend on the processing

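No paired analysis was possible because the recovered libraries carry no replicate numbers, so the planned replicate block was not run. With each library left out in turn (limma), the counts were 2 higher and 4 lower genes in Tet1kd cells and 1 lower gene in Tet2kd cells, as with all libraries. The 1 gene higher in Tet2kd cells depended on the setting: the count was 3 with the second deposited test, 0 with limma without a minimum mean, 0 with TMM scaling, 4 with the 2 depths as a term, and 0 to 2 with a library left out. It was 0 without parental library c, Tet2kd library b or Tet2kd library c, and 2 without Tet1kd library d. The gene called by the first test was Fgf5. In the limma fits other genes were called: Fgf4 (adjusted p = 0.0366, and 0.132 or 0.194 with the other matching Tet1kd reads, an alternative chosen after seeing the data) and, with the 2 depths as a term, Fgf15 (adjusted p = 0.0146) and Fgf17 (adjusted p = 0.0186). The Fgf4 call also rests on the set of Tet2kd reads kept by the 20% limit. Between the knockdowns 2 genes were higher in every leave-one-out fit and 3 to 4 lower. The fourth, Fgf17, passed without Tet1kd library c (adjusted p = 0.0366) or without Tet2kd library b (adjusted p = 0.0283).

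With the second deposited test the co-receptor list had 1 lower gene in Tet1kd cells and 2 in Tet2kd cells (1 with limma), and the heparan sulfate list 5 lower in Tet2kd cells. In Tet2kd cells the adaptor list then had 5 higher (2 with limma) and 4 lower genes, and the feedback list 4 higher (4 with limma) and 5 lower. For single genes 390 alternative values kept direction and side of the threshold, 18 passed it where the main test had not, and 14 lost it, all 14 in Fgf5 in Tet2kd cells. The cause of these changes was not tested. Depth limits Fgf5 and Fgf8 in Tet1kd cells most, with 29 and 10 reads over 4 libraries.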

Other observations

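Fgfr4 sits among genes that were higher in Tet2kd cells while its own log2 fold change was 0.11 (adjusted p = 1 in the authors' deposited table). Of the 10 nearest measured genes on chromosome 13, 8 rose in Tet2kd cells, beside 3.85% of all genes called higher. The median over the 10 was 0.66 on the log2 scale, and the range 0.09 to 1.28. In Tet1kd cells the median of the same genes was 0.30. Nsd1, a histone methyltransferase gene next to Fgfr4, had a deposited mean of 12399 normalized counts in Tet2kd cells and 7040.3 in parental cells (log2 fold change 0.82, adjusted p = 1.08e-21 in the authors' deposited table). Tspan17, a membrane protein gene, rose by 1.28 (adjusted p = 2.64e-19). These neighbours were named after their values were seen.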
